A study of Mus musculus with 2 samples.

Results

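The clustered protocadherins were taken as every mouse gene whose GENCODE symbol places it in the alpha, beta or gamma protocadherin cluster: Pcdha with a number or c, Pcdhb with a number, and Pcdhga, Pcdhgb or Pcdhgc with a number. This rule found 58 of the 43346 Ensembl gene rows, of which 14 belong to the alpha, 22 to the beta and 22 to the gamma cluster. No measured value entered the choice. The study holds 2 RNA libraries, each from a laser-captured area of the cerebellar granule layer of mice. Both areas came from adult male wild-type tissue of strain B6NCrl, aged 8 months, carry the same donor label and are numbered biological replicates 1 and 2. For each library the labels give an area of 18000 square microns, a starting quantity of 50 cells and a Smart-seq protocol, which amplifies full-length polyadenylated RNA from few cells. There is 1 group and no contrast, so the spread between replicates is the only error, and whether it covers different animals is not stated.

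Clustered protocadherins are cadherin-like proteins of the neuronal surface that bind the same isoform on a neighbouring membrane, and a neuron's mix of isoforms lets its own branches recognise and avoid each other. Every alpha and gamma gene has its own promoter and a large variable exon that encodes the extracellular part, which is spliced to constant exons shared by the whole cluster; beta genes have the variable exon alone. Most isoforms are chosen at random in each neuron, through promoter methylation and loops held by CTCF and cohesin, whereas the C-type isoforms at the end of the alpha and gamma clusters are more uniform between cells. Because each area pools many cells, its values are averages that do not show the choice made by a single neuron, and fewer cells with an isoform and less RNA per cell cannot be told apart.

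The label of the tissue was checked on marker genes. All 10 granule neuron markers were detected in both areas, with a median of 189 and 194 TPM (transcripts per 1e6, a length-normalised level), and Gabra6, which encodes the GABA-A subunit that marks granule cells, was at 925 and 1086 TPM. Detection means at least 1 TPM and at least 5 expected counts, which are counts estimated by sharing reads between similar genes. Other cells were also present: all 6 astrocyte, all 6 oligodendrocyte and all 5 Purkinje cell markers were detected in both areas, with summed levels of 607 and 568, 547 and 666, and 124 and 188 TPM. Of the inhibitory neuron markers 4 of 5, of the unipolar brush cell markers 2 of 3, of the endothelial markers 4 of 4 and of the microglial markers 3 of 4 were detected in both. None of the 3 serotonergic markers was detected, with Slc6a4 and Fev at 0. The 4 globin genes summed to 5036 TPM in replicate 1 and 388 TPM in replicate 2. Their part in any difference between the areas described here was not tested. The libraries held 20532709 and 19939370 expected counts.

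All 58 genes lie on the plus strand of mouse chromosome 18 (mm10, the same build as GRCm38). The alpha cluster spans 36930184 to 37187661, the beta cluster 37264938 to 37524479 and the gamma cluster 37661793 to 37841873. A pair of gene IDs carries the symbol Pcdha11 in the later annotation used for names. The transcript of the one at 37005203 to 37187657 (ENSMUSG00000007440.10) is listed by RefSeq as Pcdha10, and it is called Pcdha10 here. In the annotation, the 14 alpha genes share 3 constant exons of 2860 bases in all, and the 22 gamma genes share 3 constant exons of 2119 bases. Between 38.0% and 54.9% of the exonic bases of an alpha gene, and between 27.8% and 66.8% of those of a gamma gene, belong also to another member. Among beta genes only Pcdhb21 and Pcdhb22 overlap, by 9.67% and 6.88% of their exonic bases.

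Clustered protocadherins were detected at low levels. In both areas 33 of the 58 members were detected (56.9%), while 10 were detected in 1 area only and 15 in neither. Over all Ensembl gene rows the share detected in both areas was 28.9%, and over protein-coding genes it was 50.4%, near that of the members. By cluster, 10 of 14 alpha, 10 of 22 beta and 13 of 22 gamma genes were detected in both areas. The members' levels, as means of both areas, ran from 0 to 7.77 TPM with a median of 1.58. The median over all genes detected in both areas was 12.2 TPM. No member stood alone as a dominant isoform: the 5 highest held 26.4% and 24.5% of the summed level of all members.

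**Figure D1:**
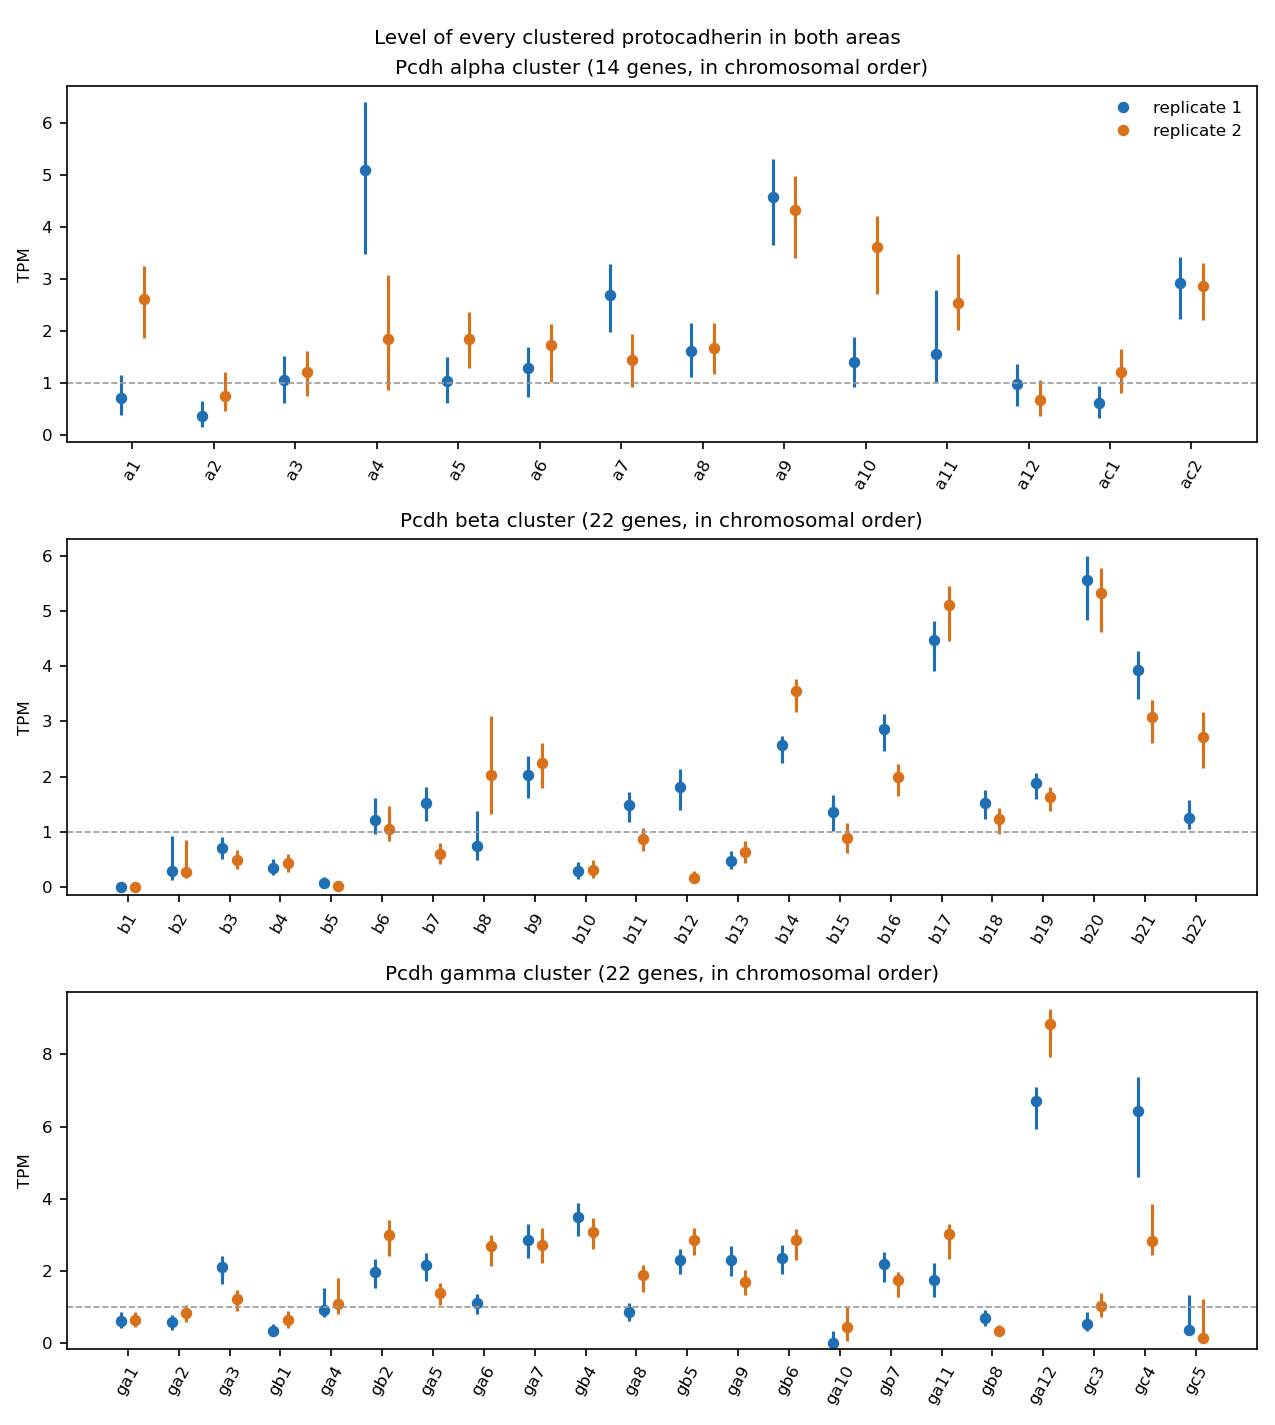
Level in TPM (vertical axis) of each of the 58 clustered protocadherins (horizontal axis, named without the prefix Pcdh, in chromosomal order) in replicate 1 (blue) and replicate 2 (orange). Dots are the deposited TPM, vertical lines the deposited TPM interval and the dashed line 1 TPM; Pcdhga12 is highest at 6.70 and 8.84 TPM, and levels in the beta cluster are higher toward its end.

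The gamma cluster had the highest summed level, the alpha cluster the lowest. The alpha genes summed to 25.9 TPM in replicate 1 and 28.3 TPM in replicate 2, which gives 27.1 ± 1.71 TPM (SD, n = 2). The beta genes summed to 36.5 and 34.7 TPM, or 35.6 ± 1.24 TPM. The gamma genes summed to 42.7 and 45.0 TPM, or 43.8 ± 1.63 TPM. This order, gamma above beta above alpha, held in both areas and the ranges did not overlap; no test between clusters of the same libraries was made. Per gene the clusters were closer. The mean level per gene was 1.94 ± 0.122 TPM for alpha, 1.62 ± 0.0566 for beta and 1.99 ± 0.0742 for gamma. By this mean alpha and gamma did not differ beyond their spread, and beta was below both in each area. The medians in replicates 1 and 2 were 1.345 and 1.78 TPM for alpha, 1.425 and 0.975 for beta, and 1.855 and 1.725 for gamma. By median, beta was above alpha in replicate 1 and gamma was below alpha in replicate 2. The summed expected counts were 2194 and 2422 for alpha, 2805 and 2613 for beta, and 2823 and 3013 for gamma.

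**Figure D2:**
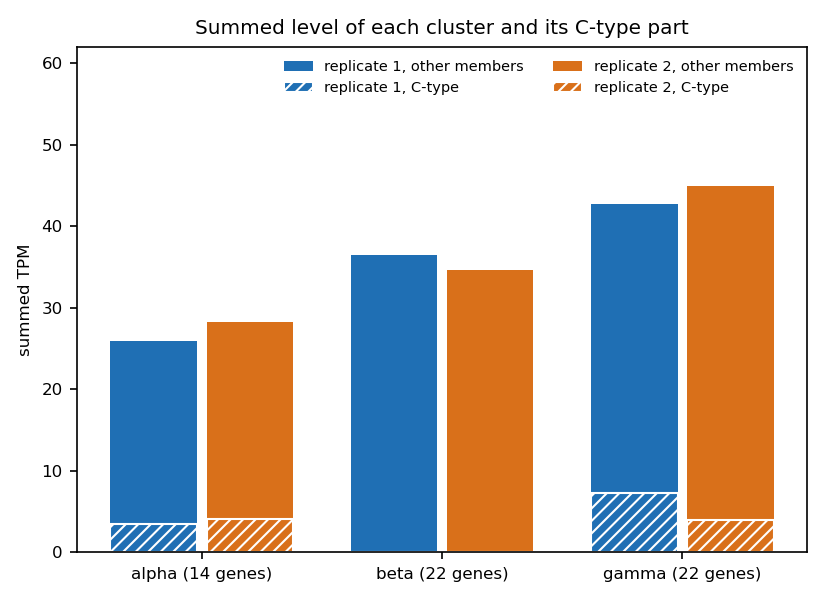
Summed level in TPM of the 14 alpha, 22 beta and 22 gamma genes in replicate 1 (blue) and replicate 2 (orange), with the part from C-type isoforms hatched. The gamma sum is highest in both areas, and its C-type part is 7.33 TPM in replicate 1 and 3.97 TPM in replicate 2.

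The 5 C-type isoforms did not exceed the other members as a group. They summed to 10.9 TPM in replicate 1 and 8.04 TPM in replicate 2, which was 10.3% and 7.45% of the level of all members. The mean level per gene was 1.89 ± 0.397 TPM for C-type isoforms and 1.83 ± 0.0771 TPM for the 53 others, a difference within the spread. By median the C-type isoforms were lower in both areas, at 0.60 and 1.21 TPM against 1.49 and 1.67 TPM for the others. Their 5 levels were far apart, and 2 of the 5, Pcdhac2 and Pcdhgc4, were detected in both areas.

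Pcdhac2, which serotonergic neurons need for axonal tiling in mouse, was at 2.92 TPM in replicate 1 and 2.86 TPM in replicate 2, from 289 and 275 expected counts (ENSMUSG00000102697.1, chromosome 18, 37143503 to 37187657). It was the third highest alpha gene and the closest between the areas among the 5 C-type isoforms, with a log2 difference of -0.02 on the log2(TPM + 1) scale. The serotonergic markers were at or near 0 in the same libraries, with Tph2 at 6 and 4 expected counts. Pcdhac1, the other alpha C-type isoform, was at 0.60 and 1.21 TPM, from 54.4 and 108 expected counts. Its deposited intervals overlapped, so the areas did not separate. The C-type isoforms made up 13.6% and 14.4% of the alpha level.

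Pcdhgc4, the isoform that supports the survival of developing interneurons in mouse, was the highest C-type isoform in replicate 1 and by the mean, and level with Pcdhac2 in replicate 2. Its level was 6.42 TPM in replicate 1 and 2.82 TPM in replicate 2, from 283 and 141 expected counts (ENSMUSG00000023036.10, chromosome 18, 37815079 to 37841873). Replicate 1 was higher by 0.96 on the log2 scale and the deposited intervals, 4.60 to 7.39 and 2.44 to 3.87 TPM, did not overlap. Most of this difference lay on the transcript Pcdhgc4-203, with 125 and 0 counts. Of its 2272 bases, 2119 are constant exons that all gamma genes share, and whether its reads came from Pcdhgc4 was not tested. The same limit holds for the rank of Pcdhgc4 in replicate 1 and for the C-type share of the gamma cluster. Pcdhgc3, which promotes dendrite branching in mouse cortex and binds Axin1, was at 0.54 and 1.02 TPM. Pcdhgc5, the last gene of the cluster, was at 0.37 and 0.13 TPM. Its posterior mean TPM was higher, at 0.77 and 0.59, and its deposited interval in replicate 2, 0.14 to 1.23 TPM, lay above the deposited TPM. The C-type isoforms made up 17.2% and 8.82% of the gamma level, and the difference between the areas lay in Pcdhgc4. In mouse Purkinje cells C-type isoforms are known to be expressed constitutively; markers of that cell type summed to 124 and 188 TPM here, and their part in these levels was not tested.

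Among the alpha genes, whose constant tail binds the WAVE complex of actin regulation, Pcdha9 led. It was at 4.59 TPM in replicate 1 and 4.34 TPM in replicate 2, from 412 and 379 expected counts (ENSMUSG00000103770.1, chromosome 18, 36997880 to 37187657). The areas were alike for this gene, with overlapping intervals of 3.66 to 5.32 and 3.41 to 4.99 TPM. Pcdha4 was at 5.10 and 1.84 TPM, so that it was the highest alpha gene in replicate 1 only. Pcdha10 was at 1.40 and 3.62 TPM, the opposite order. Pcdha7 was at 2.70 and 1.43 TPM, and Pcdha11 at 1.55 and 2.54 TPM. Pcdha8 was at 1.62 and 1.67 TPM, nearly the same in both areas. Pcdha3, Pcdha5 and Pcdha6, named after their values were seen, lay between 1.03 and 1.85 TPM with overlapping intervals. Pcdha1, the first gene of the cluster, was at 0.71 and 2.61 TPM. The 4 alpha genes not detected in both areas were Pcdha1, Pcdha2, Pcdha12 and Pcdhac1, with means of 0.55 to 1.66 TPM. The rank order of the 14 genes was only loosely shared between the areas (Spearman 0.52 across genes, which are not independent), against 0.73 for 20 beta and 0.81 for 22 gamma genes.

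The beta genes, which lack the constant exons and so the shared cytoplasmic tail, followed their position. Pcdhb20 was highest at 5.57 TPM in replicate 1 and 5.33 TPM in replicate 2, from 330 and 307 expected counts (ENSMUSG00000046191.7, chromosome 18, 37504264 to 37507822). Pcdhb17 was at 4.48 and 5.10 TPM, from 350 and 387 counts (ENSMUSG00000046387.5, chromosome 18, 37484795 to 37489454). The intervals of both overlapped between the areas, so both genes were stable and among the 5 highest members. Pcdhb21 was at 3.94 and 3.08 TPM, Pcdhb14 at 2.57 and 3.56 TPM, and Pcdhb16 at 2.87 and 1.99 TPM. Each of these 3 had intervals that did not overlap, in both directions. Pcdhb9 was at 2.03 and 2.25 TPM and Pcdhb19 at 1.88 and 1.64 TPM, without separating. Pcdhb22, the last gene, was at 1.25 and 2.72 TPM, with intervals apart. Its counts were closer, at 139 and 198, and its shorter transcript Pcdhb22-201 held 0 and 48.2 of them. The part of this division in the TPM difference was not tested. Of the lower beta genes, named after their values were seen, Pcdhb7 was at 1.53 and 0.60 TPM and Pcdhb11 at 1.49 and 0.88 TPM, both higher in replicate 1 with intervals apart. Pcdhb8 was at 0.74 and 2.03 TPM, and its intervals, 0.49 to 1.38 and 1.33 to 3.10 TPM, touched.

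At the other end of the beta cluster, Pcdhb1 had no count in either area, where a count of 0 allows up to 3 counts per library. Pcdhb1 is the first gene of the cluster. Pcdhb5, named after its values were seen, had 5 and 2 counts. Levels were higher toward the end of the beta cluster, with a Spearman correlation of 0.77 between mean TPM and order over 22 genes (0.72 and 0.74 in the single areas). The first 11 genes summed to 8.72 and 8.36 TPM and had medians of 0.71 and 0.50. The last 11 genes summed to 27.7 and 26.3 TPM, with medians of 1.88 and 1.99. In the first 11 genes 2 were detected in both areas, and in the last 11 genes 8 were. Effective length, the length over which a fragment can start, was also greater toward the end of the beta cluster (Spearman 0.61), and its part in the order was not tested. Along the alpha cluster the correlation of level with order was 0.17 over 14 genes and along the gamma cluster 0.18 over 22 genes. These are descriptions, with no p.

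Pcdhga12, a gamma A isoform, was the highest member of all. It was at 6.70 TPM in replicate 1 and 8.84 TPM in replicate 2, from 489 and 627 expected counts (ENSMUSG00000102428.1, chromosome 18, 37765580 to 37841873). The intervals, 5.94 to 7.09 and 7.93 to 9.26 TPM, did not overlap, and replicate 2 was higher by 0.35 on the log2 scale. Next among the gamma genes outside the C-type were Pcdhgb4 at 3.50 and 3.09 TPM and Pcdhga7 at 2.87 and 2.72 TPM. Pcdhgb6 was at 2.37 and 2.87 TPM, and Pcdhgb5 at 2.30 and 2.86 TPM. These 4 did not separate the areas. Pcdhgb2 was at 1.96 and 2.99 TPM and Pcdhga11 at 1.75 and 3.03 TPM, both higher in replicate 2 with intervals apart. Of the genes named after their values were seen, Pcdhga6 was at 1.10 and 2.70 TPM and Pcdhga8 at 0.87 and 1.89 TPM, both higher in replicate 2. Pcdhga3 was at 2.10 and 1.21 TPM and Pcdhga5 at 2.16 and 1.40 TPM, both higher in replicate 1. The intervals of these 4 did not overlap between the areas, so neighbouring gamma genes differed in opposite directions. Pcdhga1, the first gene of the cluster, was low at 0.62 and 0.63 TPM. By subfamily, the 12 gamma A genes summed to 22.0 and 26.5 TPM and the 7 gamma B genes to 13.4 and 14.5 TPM. The median level of gamma B genes, 2.53 ± 0.467 TPM, was above that of gamma A genes, 1.49 ± 0.0849 TPM. The ranges of the areas did not overlap, and no test was made. The mean level per gene, taken from the sums, gave no such order: gamma B was above gamma A in replicate 1 and below it in replicate 2.

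The transcript values are deposited estimates of where in each gene the level lay. Transcripts with and without constant exons overlap in the variable exon, where a read can fit both, so the division between them was not seen directly. A transcript was counted as holding constant exons when it covered any base shared by at least 10 members. Transcripts of both kinds are annotated for 11 of the 22 gamma genes and for 2 of the 14 alpha genes, Pcdha4 and Pcdha11. In these 11 gamma genes, 80.6% of the level in replicate 1 and 93.7% in replicate 2 lay on transcripts without constant exons, or 87.1% ± 9.23 (SD, n = 2). In the 2 alpha genes the same share was 7.22% and 23.5%, or 15.4% ± 11.5. In 6 of the 11 gamma genes such a transcript is annotated as a retained intron, that is, a variable exon that runs on into the intron in place of being spliced to the constant exons. In 7 of the 11 gamma genes they held most of the level in both areas. The other 11 gamma genes have only transcripts with constant exons in the tables, so their reads could be given to no other kind. Over all 22 gamma genes, transcripts without constant exons held 53.8% and 59.1% of the level.

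Pcdhga12 held the most counts of this kind. Its single-exon transcript Pcdhga12-202, at 37765773 to 37770124 and 4352 bases long, held 484 and 623 expected counts, or 99.1% and 99.5% of the level. Its spliced coding transcript Pcdhga12-201 held 4.92 and 3.64 counts. For Pcdhgb4 the transcript without constant exons held 215 and 185 counts and the spliced coding one none in either area. For Pcdhgb5 the counts were 174 and 213 without constant exons, against 1.74 and 0 with them, and for Pcdhga7 they were 145 and 133 against 0 and 0. Pcdhgb2 had 83.6 and 132 counts without constant exons against 9.83 and 0. Pcdhga4, named after its values were seen, was the exception in both areas: its spliced transcript held 73.9 and 78.0 counts, against 0 and 0.86. Pcdhga1 held 0 counts without constant exons in replicate 1 and 33.0 in replicate 2. Its spliced transcript held 48.7 and 0 counts, with a gene level of 0.62 and 0.63 TPM. By posterior mean TPM the division was less sharp, with 29.8% and 76.2% of Pcdhga1 on the transcript without constant exons.

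By the deposited counts, the difference in Pcdhgc4 between the areas was also a difference between transcripts. Its retained-intron transcript, at 37815456 to 37818555, held 158 and 141 counts, or 3.07 and 2.82 TPM. A spliced transcript of 2272 bases, Pcdhgc4-203, of which 2119 bases are constant, held 125 counts (3.35 TPM) in replicate 1 and 0 in replicate 2, with a deposited posterior SD of 24.1 and 10.1 counts. The spliced full-length transcript Pcdhgc4-201 held 0 counts in both areas. Full-length coding transcripts of Pcdhgc3 held 13.2 and 0 counts, and those of Pcdhgc5 held 0 and 0. All of the deposited Pcdhgc5 TPM lay on Pcdhgc5-202, a retained-intron transcript that covers 410 constant bases. By posterior mean TPM that transcript held 47.5% and 22.1% of the gene. In the alpha cluster Pcdha4 differed. Its transcripts with constant exons together held 352 counts in replicate 1 and 134 counts in replicate 2, and its single-exon transcript 0 and 1.69 counts. Of the spliced counts, Pcdha4-201 held 352 and 80.2, and Pcdha4-202 held 0 and 53.6. Pcdha11 had 26.6 and 53.2 counts on transcripts without constant exons, against 66.6 and 136 with them.

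**Figure D3:**
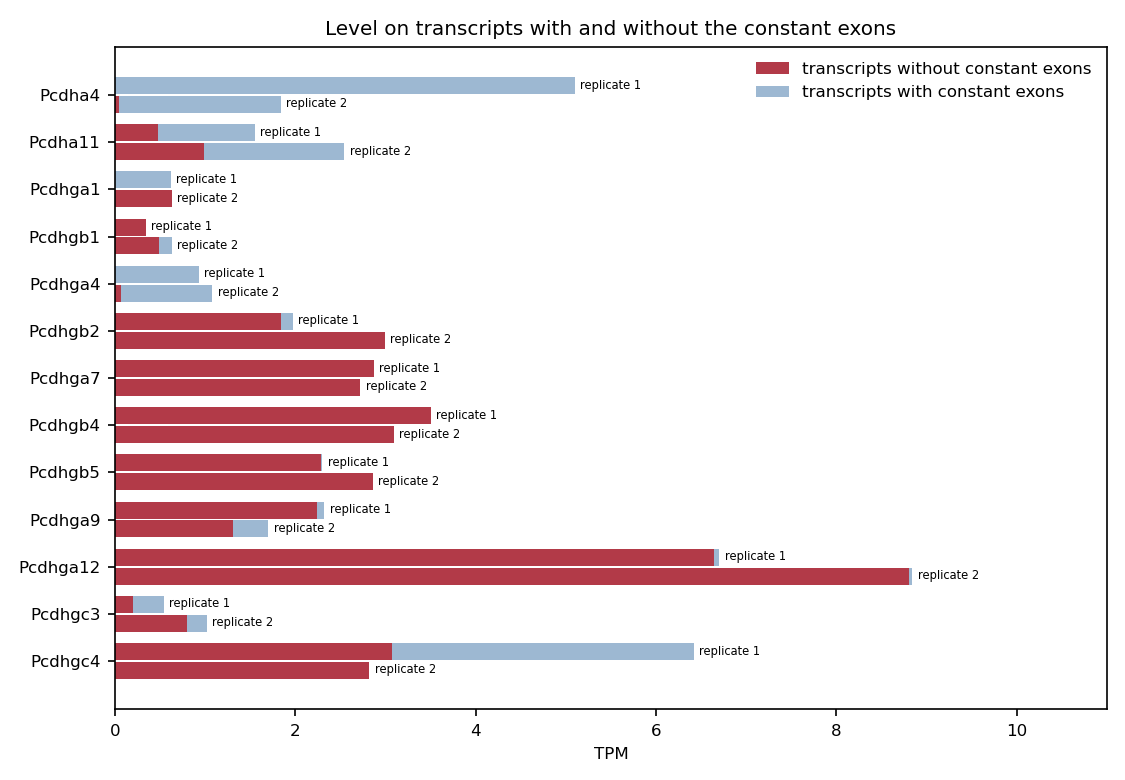
Level in TPM (horizontal axis) of the 13 alpha and gamma genes with both kinds of annotated transcript, divided into transcripts without (red) and with (blue) constant exons, for replicate 1 (upper bar) and replicate 2 (lower bar). In Pcdhgb4, Pcdhga7 and Pcdhga12 nearly the whole bar is red, and in Pcdha4 nearly the whole bar is blue.

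Reads were given to alpha and gamma genes with less certainty than to beta genes. The deposited posterior SD of the count, as a percent of the posterior mean and taken as the higher of the areas, had a median of 20.1% over alpha genes, 8.37% over gamma genes and 0.145% over the 20 beta genes with a summed count of at least 10. It exceeded 10% in 12 of 14 alpha, 10 of 22 gamma and 1 of 20 beta genes. Over all genes with that summed count it did so in 1043 of 16636. A posterior SD over 0.5 of the posterior mean was found in 1 of 56 members (1.79%), against 1.57% of all genes with that summed count. That member, Pcdhga10, named after its values were seen, was at 0 TPM in replicate 1 and 0.45 TPM in replicate 2, with a posterior SD of 8.17 and 20.0 counts. All 2613 bases of Pcdhga10 outside the shared exons are covered on the opposite strand by exons of Gm26672, a noncoding RNA gene with 542 and 375 counts (18.2 and 11.9 TPM). The use of strand in counting is not given in the sources used here, and without it reads from either strand cannot be told apart.

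**Figure D4:**
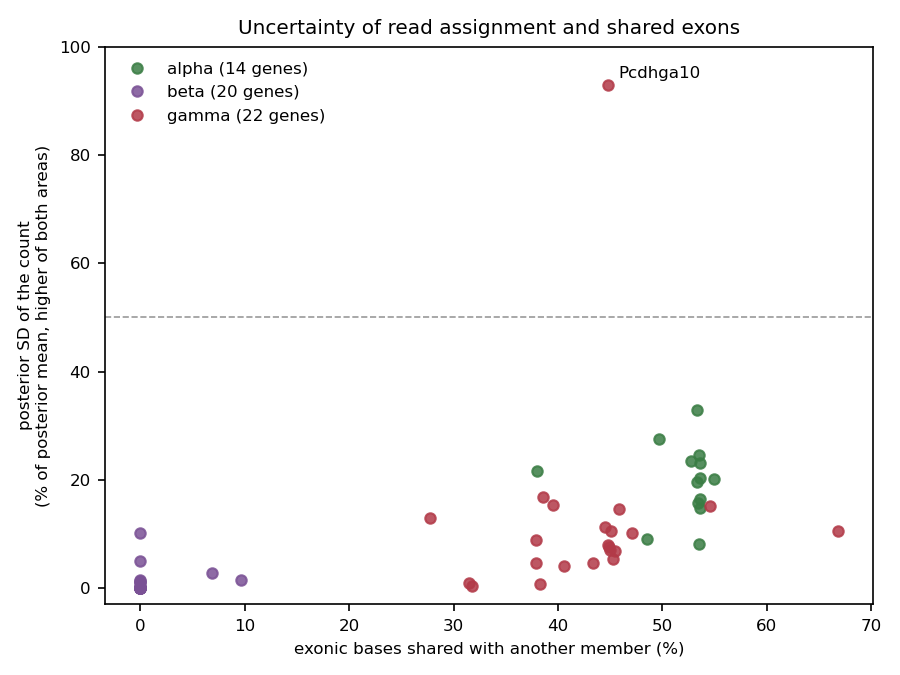
Posterior SD of the count as a percent of its posterior mean, higher of both areas (vertical axis), against the percent of a gene's exonic bases that another member also holds (horizontal axis), for 14 alpha, 20 beta and 22 gamma genes. Beta genes lie at 0% to 10.2% of the mean and at most 9.67% of shared bases, alpha genes between 8.12% and 32.9%, and Pcdhga10 alone lies above the dashed line at 0.5 of the mean.

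Exons of genes on the minus strand overlap 13 of the 58 members, 4 alpha, 1 beta and 8 gamma. The largest overlaps besides Pcdhga10 were in Pcdhb12, with 63.5% of its exonic bases under the antisense gene Gm37446, and in Pcdha11, with 44.3%. Gm37446 held 22.2 and 24.2 counts. For Pcdhga12 the overlap was 6.33%. Of 12 antisense or other noncoding genes on the minus strand of the locus, 1, Gm26672, was detected in both areas. Gm42416, Gm37013 and Gm37388, 3 coding genes that join an alpha exon to gamma constant exons, together held 0 counts in replicate 1 and 0.62 in replicate 2.

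Between the areas, 3 of 56 members with a summed count of at least 10 lay over 2-fold apart on the log2(TPM + 1) scale (5.36%). The share was 3.16% over all 16636 genes with that summed count, and 5.84% over the 8213 of them in the TPM range of the members. Pcdha1 was higher in replicate 2, with 0.71 and 2.61 TPM. Pcdha4 was higher in replicate 1, with 5.10 and 1.84 TPM. The posterior SD of Pcdha1 was 15.7 and 25.9 counts, beside 58.6 and 210 expected counts. That of Pcdha4 was 50.2 and 39.1 counts, beside 352 and 135 expected counts. All Pcdha1 counts lay on Pcdha1-202, and most Pcdha4 counts on Pcdha4-201 (352 and 80.2). These transcripts share an end at 37187661, which no other alpha transcript has, and each holds 2432 constant bases. Whether reads were divided differently between them in the areas was not tested. Pcdhb12 differed most, with 1.81 and 0.16 TPM from 90.8 and 7.76 counts. A finer measure, the deposited TPM intervals, did not overlap between the areas for 19 of 56 members (33.9%): 4 alpha, 7 beta and 8 gamma genes, with 10 higher in replicate 1 and 9 higher in replicate 2. Over all genes the share was 29.1%, and in the TPM range of the members 24.4%. The median size of the log2 difference was 0.29 over members and 0.31 over all genes in that range.

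**Figure D5:**
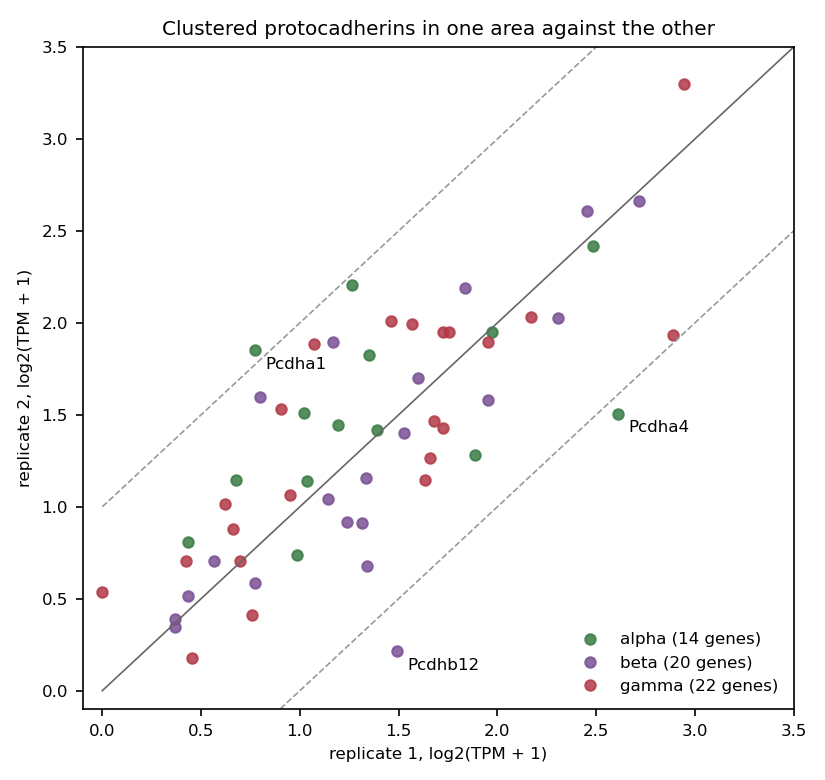
Level of 56 clustered protocadherins in replicate 1 (horizontal axis) against replicate 2 (vertical axis), both as log2(TPM + 1), coloured by cluster. The solid line marks equal levels and the dashed lines a 2-fold difference; Pcdha1, Pcdha4 and Pcdhb12 lie outside them.

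Genes that work with the clusters were read from lists chosen with earlier results of these data known. Of 17 regulators of promoter choice, 16 were detected in both areas (94.1%), with a median of 34.4 TPM. Over all Ensembl gene rows the share detected was 28.9%, and over protein-coding genes 50.4%. Wapl, which releases cohesin from DNA, was at 77.7 and 78.4 TPM. The cohesin subunit genes Stag1 and Stag2 were at 68.3 and 63.5 TPM and at 53.5 and 67.6 TPM. Ctcf, whose protein anchors the loops between promoters and enhancers, was at 68.5 and 55.7 TPM. Dnmt3b, the DNA methyltransferase that methylates these promoters in the mouse embryo, was lowest at 1.00 and 0.63 TPM. None of the 17 was over 2-fold apart between the areas, where the share over all genes with a summed count of at least 10 was 3.16%.

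Of 15 genes for cytoplasmic partners and proteases, 13 were detected in both areas (86.7%, against 50.4% of protein-coding genes), with a median of 24.7 TPM. Pdcd10, an adaptor that binds protocadherin tails, was highest at 155 and 149 TPM. Abi2 and Nckap1, subunits of the WAVE complex, were at 77.0 and 94.9 TPM and at 67.8 and 76.1 TPM, and the shedding protease Adam10 was at 55.7 and 55.6 TPM. Ret, a receptor tyrosine kinase that is bound by protocadherins, was lowest at 0.45 and 0.18 TPM. Of 12 non-clustered protocadherins, which are single genes outside the clusters, 5 were detected in both areas (41.7%, against 50.4% of protein-coding genes). Pcdh9 was at 61.2 and 51.4 TPM, above the summed level of any 1 cluster. Pcdh10 followed at 3.64 and 3.98 TPM, Pcdh1 at 2.79 and 1.74 TPM and Pcdh7 at 2.79 and 1.43 TPM, and Pcdh20 was lowest at 0 and 0.27 TPM. The median of the 12, 0.87 TPM, was below that of the clustered genes, with no test.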

How the data were processed

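RNA of 2 captured areas, 1 group, was analysed from the authors' gene and transcript tables. Per the file headers, the tables give deposited expected counts, which divide ambiguous reads between genes and transcripts, and deposited TPM values, scaled by transcript length and library size. As score columns the authors gave the posterior standard deviation of the count and the 2 bounds of a TPM interval, at a level the headers leave unstated. The deposited percent column is the share of a gene held by each transcript. Per the deposited notes, reads were placed on mm10 with GENCODE M4 genes. How strand was used, and which aligner and counting program, is not given in the sources used here. Names, types and exons came from GENCODE M21 on the same build, by ID without version (42462 of 43346 IDs and all 88 member transcripts matched), so types can differ from M4. Symbols were compared with RefSeq (GRCm38.p6).

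Detection needed TPM of at least 1 and a count of at least 5; comparisons between areas used log2(TPM + 1) and a summed count of at least 10. No test was made: the group has no contrast, and no exact permutation of 2 values can pass 0.05. Reads are not independent molecules, and floors cover counting error only. Intervals were also wider where reads were assigned with less certainty, and neither covers differences between animals. At 87.5 counts in replicate 1, Pcdha12 had an interval of 0.55 to 1.37 TPM (posterior SD 17.1 counts). At 89.3 counts, Pcdhb7 had 1.20 to 1.81 TPM (posterior SD 0.85 counts), so overlap was not judged equally for alpha and beta genes. Named were the C-type isoforms, the 8 highest and the first and last members of each cluster, members over 2-fold apart, and the 4 highest and the lowest of each list; others are said to be named after their values were seen. Members and lists were chosen with earlier results of these data known. The counting rules were checked on simulated data. Python 3.11 libraries pandas and scipy were used. Sequences of these genes are not reported here.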

Additional observations from a re-analysis of the deposited data

How the results depend on the processing

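No paired analysis was possible because there is only 1 group. Counts followed the thresholds: 33 members were detected in both areas, 13 with at least 2 TPM and 10 counts, and 56 with any count in each area. Shares of all genes at these changed thresholds are not given. Non-clustered protocadherins with any count in each of both areas numbered 10 of 12. Members over 2-fold apart numbered 12 with a pseudocount of 0.1 (21.4%, against 14.0% of all genes) and 0 with a pseudocount of 5. Members with uncertain reads numbered 3 at 0.25 of the posterior mean (Pcdha2, Pcdha4 and Pcdhga10) and 0 at a summed count of at least 50. Shares of all genes at these settings are not given either. Rescaling TPM without the mitochondrial genome and Malat1 raised the cluster sums to 35.0, 45.9 and 56.6 TPM for alpha, beta and gamma, in the same order. With expected counts the C-type share of the alpha cluster was 15.7%. With posterior mean TPM the correlation of level with order was 0.75 for beta and 0.23 for gamma; leaving out 1 area gave 0.16 to 0.24 for alpha, 0.72 to 0.74 for beta and 0.12 to 0.16 for gamma. The other alternatives stayed within the spread or within 1.5 times the count, and the order of the cluster sums did not reverse. The share on gamma transcripts without constant exons was 80.6% to 93.7% with 1 area left out. Other orders did reverse. The mean level per gene was 2.17 TPM for C-type isoforms and 1.78 for the others in replicate 1, and 1.61 and 1.89 in replicate 2. The C-type share of alpha and gamma was 14.0% and 13.0%, but 13.8% and 14.0% with posterior mean TPM. Posterior mean TPM moved 4 of the 30 named members by more than 1 SD, and raised Pcdhgc5 from 0.25 to 0.68 TPM. The intervals between areas, the grouping by constant exons and the comparison at matched levels were added after seeing the data. Of the 15 members under detection in both areas, 12 had at least 5 counts in each and missed only the TPM minimum; Pcdhb1, Pcdhb5 and Pcdhga10 also missed the count minimum in at least 1 area.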

Other observations

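The classical cadherins and catenins, a family related to the protocadherins that joins cells through calcium-dependent adhesion, were read beside them. Of 21 genes on this list, 13 were detected in both areas (61.9%, against 50.4% of protein-coding genes), with a median of 3.49 TPM. Cdh7, a type II cadherin, was highest at 93.9 TPM in replicate 1 and 111 TPM in replicate 2. Ctnnb1, which encodes beta-catenin, was at 64.7 and 60.3 TPM. Cdh18 was at 57.0 and 54.8 TPM and Cdh8 at 32.6 and 43.4 TPM, both type II cadherins of neurons. Cdh1, the epithelial cadherin, had no count in either area. None of the 18 genes with a summed count of at least 10 was over 2-fold apart between the areas, against 3.16% of all such genes.

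Within the protocadherin locus, between the beta and gamma clusters, 3222401L13Rik, annotated as a long intergenic noncoding RNA on the plus strand, was at 15.3 and 14.4 TPM from 828 and 745 counts. That was above every clustered protocadherin. Taf7, which encodes a subunit of the general transcription factor TFIID, was at 28.0 and 25.6 TPM. Both genes, and Gm26672, were chosen after their values were seen.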
